A study of Homo sapiens with 12 samples.

Results

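The small nuclear RNA genes and copies were the genes of the count table whose symbols began with RNU, RNVU or RN7SK. They numbered 41 of 12357 genes, of the 2125 annotated symbols with these beginnings. U1 gave 22 members, U2 gave 4, U4 gave 6, U5 gave 7, and 2 were copies of 7SK. No gene of U6, of U7 or of the minor spliceosome was among the rows analysed here. The symbols of 30 members mark them as annotated copies, with a P after the number or, in 7SK, before it, and the other 11 are not annotated as copies (5 of U1, 2 of U4 and 4 of U5). The rule reads symbols alone, not counts.

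The counts come from ribosome profiling of the lymphoblastoid lines GM18505, GM19193 and GM19204, 3 cultures of B cells that Epstein-Barr virus keeps growing and that the labels give as wild type. Each line gave 1 culture that received sodium arsenite, an inducer of oxidative stress, for 30 min and 1 control culture that received nuclease-free water, so that n = 3 cell lines and a cell line is the replicate. Each of the 6 samples was sequenced as 2 libraries of the same RNA, called T (given an added CRISPR step against ribosomal RNA) and U (without that step), which are technical replicates and were summed. Counts in genes ranged from 637177 to 1730558 per arsenite library and from 1979496 to 4112703 per control library. All 12 B cell markers were in the table, with a summed share of 8979 to 12071 CPM (counts per 1e6 counts in genes) in arsenite samples and 10984 to 15271 in control samples, whereas of 6 T cell markers only TRAC, and of 4 monocyte and 3 erythroid markers none, were among the rows.

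Small nuclear RNAs are short RNAs that are not known to be translated. U1, U2, U4, U5 and U6 each join with proteins into particles that build the spliceosome: U1 pairs with the 5′ splice site, U2 with the branch point, U5 holds the exon ends, and U4 keeps U6 inactive until U4 leaves. Apart from U6, these RNAs carry a ring of Sm proteins on a short uridine-rich site and pass through the cytoplasm while they mature. 7SK, in the nucleus, holds the elongation kinase P-TEFb inactive. Human genomes carry many copies of these genes, and some U1 copies, named RNVU1, are known as variant U1 genes. A read on any of them in a ribosome profiling library is an RNA fragment that came through RNase I digestion, the size-exclusion column and gel isolation. Whether such fragments came with ribosomes was not measured.

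The authors kept uniquely mapped reads only, so that the sequence of a gene bears on the reads it could receive. Every window of 22 and of 28 bases of each gene was therefore looked up in GRCh38. No 28-base window of RNU1-1, RNU1-2, RNU1-3, RNU1-4, RNU2-1, RNU6-1 or RNU6-2 occurred at 1 place only, and these main genes of U1, U2 and U6 were not among the 41 members. RN7SK itself had 7.3% of such windows and RNU6ATAC had 7.1%, and neither was a member. Among the members, the share of 28-base windows found at 1 place ranged from 37.1% in RNU5B-1 to every window in 4 members, with a median of 89.1%. The 2084 other annotated symbols had a median of 87.2%, and 94 of them had no such window. By family, the medians of members and others were 89.8% and 90.5% in U1, 77.4% and 87.2% in U2 and 81.2% and 95.0% in U4. They were 56.3% and 91.4% in U5 and 93.8% and 91.2% in 7SK. What decided which genes became members was not tested. RNU11, RNU12, RNU4ATAC, RNU5E-1 and RNU7-1, with 85.0%, 86.2%, 97%, 59.1% and 55.6% of such windows, were also not among the rows analysed here. Reads were allowed 2 mismatches, so whether a read on a copy came from that copy or from a near-identical gene cannot be told apart. The windows were looked up by exact match, without mismatches. Counts on a member are therefore reads placed there uniquely, and may include reads of its relatives.

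**Figure D1:**
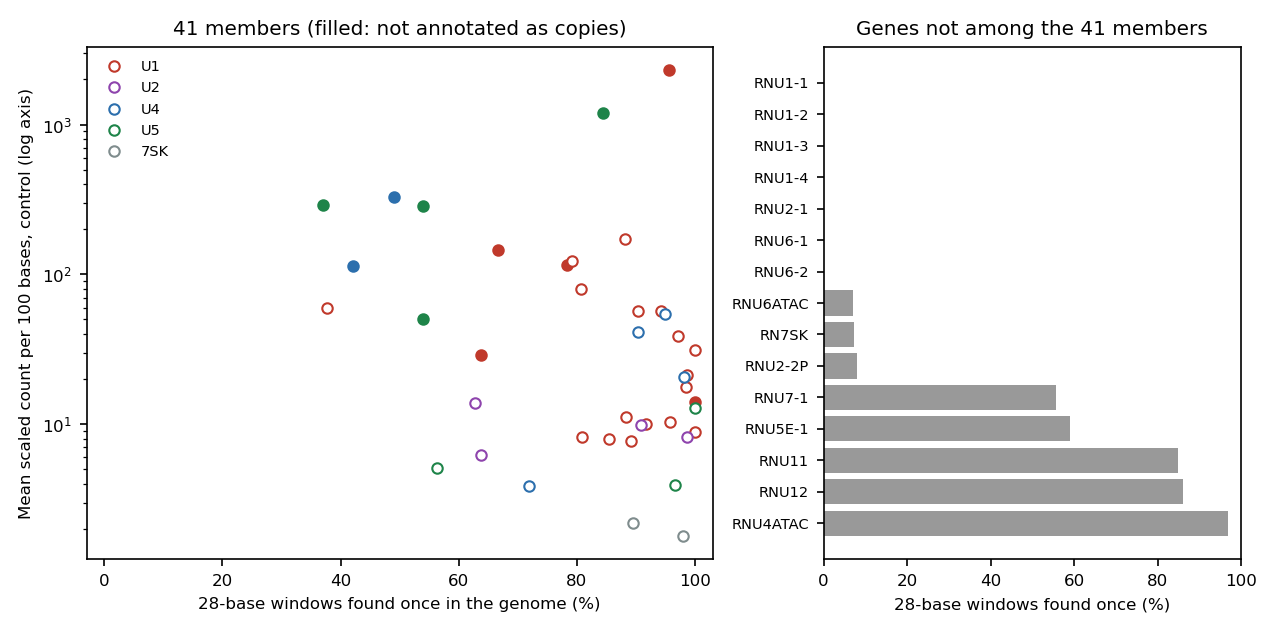
Left, each of the 41 members by the share of its 28-base windows found at 1 place in GRCh38 (x axis, %) and its mean spike-in-scaled count per 100 bases in control samples (y axis, log), with filled points for the 11 members not annotated as copies. Right, the same share for the main genes that are not members, of which 7 have a bar of 0.

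The U1 members show how far the counted genes stand from the main U1 gene. RNU1-1 (chr1:16514122-16514285, minus strand) is printed as the base for comparison, followed by the 3 members with the highest mean control count. These were RNVU1-8 (chr1:147084616-147084756, minus strand), RNU1-44P (chr4:146580048-146580210, plus strand) and RNVU1-2A (chr1:144551779-144551943, minus strand). The 3 members lie between other genes. Capitals mark CTTACCTG, the letters that pair with the 5′ splice site, and ATTTGTGG, the binding site of the Sm ring.
RNU1-1: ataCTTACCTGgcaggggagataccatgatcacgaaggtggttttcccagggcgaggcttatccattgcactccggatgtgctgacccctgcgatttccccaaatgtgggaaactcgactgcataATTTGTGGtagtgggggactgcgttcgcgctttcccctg
RNVU1-8: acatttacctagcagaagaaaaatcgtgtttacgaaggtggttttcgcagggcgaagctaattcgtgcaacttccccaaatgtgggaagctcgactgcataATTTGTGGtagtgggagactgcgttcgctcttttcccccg
RNU1-44P: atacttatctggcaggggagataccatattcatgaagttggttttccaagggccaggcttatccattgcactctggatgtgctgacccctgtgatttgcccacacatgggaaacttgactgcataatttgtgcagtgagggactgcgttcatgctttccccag
RNVU1-2A: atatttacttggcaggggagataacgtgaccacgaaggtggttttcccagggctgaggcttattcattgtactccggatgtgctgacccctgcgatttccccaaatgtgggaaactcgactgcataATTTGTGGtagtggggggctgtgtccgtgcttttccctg
RNVU1-8 had 141 bases and was identical to RNU1-1 at 73.3% of aligned positions, RNU1-44P at 87.8% and RNVU1-2A at 92.1%. CTTACCTG was present in 7 of 22 U1 members (31.8%), among them RNVU1-27, and in 50 of the 121 other annotated U1 symbols (41.3%). The Sm letters, searched as ATTTNTGG or ATTTTTTGG on the RNA strand, were present in 17 of 22 U1 members, against 61 of the 121 others. In 35116 promoter windows of 162 bases, the members' median length, 0.28% held CTTACCTG and 1.17% the Sm letters on the same strand, and 0.54% and 2.33% on either strand. A match or its absence describes these letters only.

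Of the U5 members not annotated as copies, RNU5A-1 (in an intron of PARP16 on the opposite strand) and RNU5B-1 (between genes) lie on chromosome 15. RNU5D-1 (between genes) and RNU5F-1 (in an intron of ARMH1 on the opposite strand) lie on chromosome 1. With the strand setting of the counting not given, reads of a member and of a gene on the opposite strand at the same place cannot be told apart. Windows of 28 bases at 1 place made up 53.9% of RNU5A-1, 37.1% of RNU5B-1, 53.9% of RNU5D-1 and 84.4% of RNU5F-1.

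The U4 genes are printed because the main genes of this family were themselves counted. RNU4-2 (chr12:120291763-120291903, minus strand) and RNU4-1 (chr12:120293097-120293237, minus strand) are neighbours on chromosome 12, between other genes. RNU4-36P (chr16:68535515-68535658, plus strand) lies in an intron of ZFP90 on the same strand. None of the 6 U4 members held the Sm letters as searched here or the other letters above, so that nothing is in capitals. Both Sm patterns end in GG, so a site with another ending was missed. The absence of these letters does not mean that U4 lacks a Sm site.
RNU4-2: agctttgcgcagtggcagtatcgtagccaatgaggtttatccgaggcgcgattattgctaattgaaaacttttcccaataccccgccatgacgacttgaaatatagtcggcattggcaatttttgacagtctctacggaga
RNU4-1: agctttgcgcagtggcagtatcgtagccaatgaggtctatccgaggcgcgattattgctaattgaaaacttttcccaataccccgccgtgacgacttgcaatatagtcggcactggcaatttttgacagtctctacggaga
RNU4-36P: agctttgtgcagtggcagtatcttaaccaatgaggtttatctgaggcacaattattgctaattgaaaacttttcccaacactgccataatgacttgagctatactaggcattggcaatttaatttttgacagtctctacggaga
RNU4-1 was 97.2% and RNU4-36P 85.6% identical to RNU4-2, and the share of unique 28-base windows was 49.1% in RNU4-2, 42.1% in RNU4-1 and 94.9% in RNU4-36P.

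For U2, the main gene RNU2-1 (chr17:43233787-43233977, minus strand), which is not a member, is printed beside RNU2-68P (chrX:72376979-72377169, minus strand, in an intron of HDAC8 on the same strand), the U2 member with a change that passed the test below. Capitals mark GTAGTA, which pairs with the branch point, and the Sm letters ATTTTTGG.
RNU2-1: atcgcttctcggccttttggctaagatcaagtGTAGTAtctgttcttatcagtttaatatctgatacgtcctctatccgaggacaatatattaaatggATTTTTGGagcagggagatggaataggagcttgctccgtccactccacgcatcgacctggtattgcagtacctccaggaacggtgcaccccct
RNU2-68P: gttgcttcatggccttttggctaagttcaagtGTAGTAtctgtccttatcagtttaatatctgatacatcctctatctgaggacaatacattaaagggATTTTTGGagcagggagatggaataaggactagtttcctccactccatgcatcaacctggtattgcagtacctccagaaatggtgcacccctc
RNU2-68P was 88.5% identical to RNU2-1. All 4 U2 members held GTAGTA and the Sm letters, against 32 (GTAGTA) and 23 (Sm) of the 67 other annotated U2 symbols. GTAGTA occurred in 1.03% of the promoter windows on the same strand and in 2.0% on either strand.

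Levels are given as scaled counts, that is, counts divided by a factor per sample from 7 spike-in oligomers that had been added to the RNA in known amounts. This scale keeps a shift shared by all genes, whereas TMM, the common scaling to the other genes, removes it. Levels spread widely between members. 5 members, RNVU1-8, RNU5F-1, RNU4-2, RNU5B-1 and RNU5A-1, held 73.6% ± 4.63 of all member counts in arsenite samples and 72.7% ± 5.42 in control samples (SD, n = 3). The 11 members not annotated as copies held 83.5% ± 7.04 in arsenite and 82.0% ± 5.82 in control samples. The mean count per sample over all 6 samples ranged from 4.33 to 2841, with a median of 34.7, so that counting error is large for many copies.

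RNVU1-8 was the highest member. It had scaled counts of 1742, 3450 and 2107 in arsenite samples (GM18505, GM19193 and GM19204, the order used throughout) and 2759, 3309 and 3667 in control samples. The groups overlapped through GM19193, where the arsenite sample was the higher. Per 100 bases this was a mean of 1726 in arsenite and 2301 in control samples. RNU5F-1 came next per 100 bases, at 850.0 in arsenite and 1186 in control samples, followed in control samples by RNU4-2, at 345 in arsenite and 330.3 in control samples. RNU5A-1 and RNU5B-1 were at 190.5 and 203 in arsenite samples and at 288 and 291 in control samples, and the ranges of these neighbours overlapped in both conditions.

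**Figure D2:**
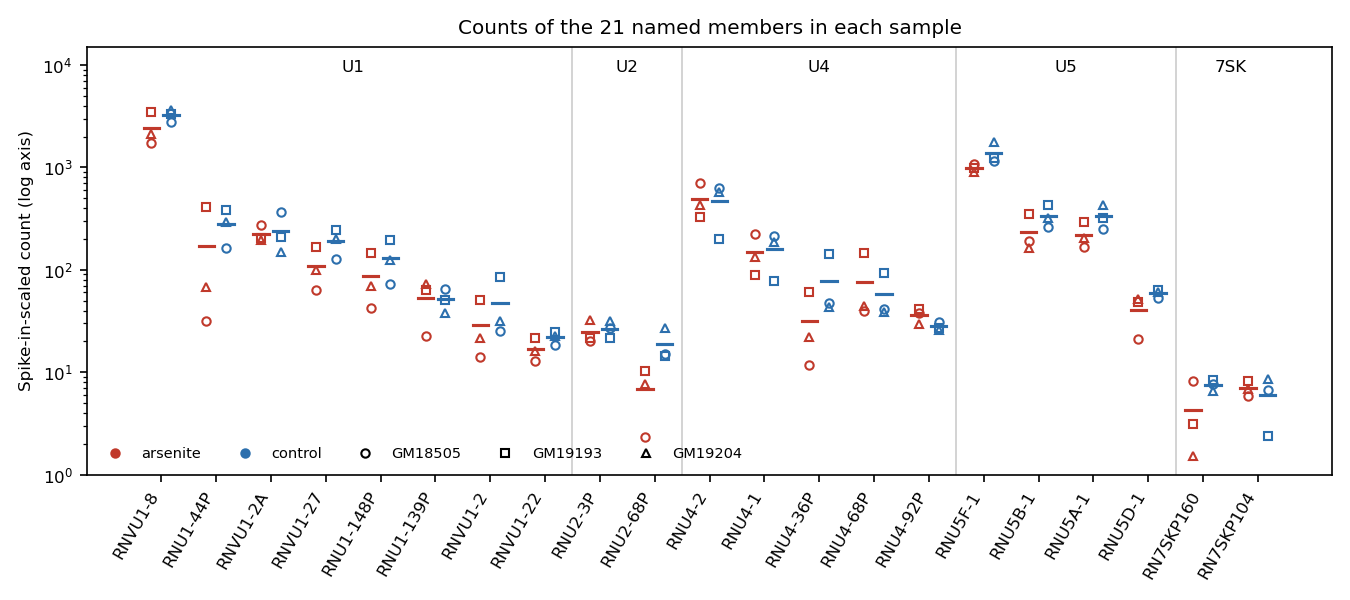
Spike-in-scaled counts (y axis, log) of the 21 named members in each sample, with a symbol for each cell line and a bar at the mean, arsenite left of control, grouped by family. The groups of most members overlap, and in U1 the GM19193 samples tend to stand above those of the other lines.

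The first question was whether counts on these RNAs changed with arsenite as those of other genes did. On the spike-in scale 4 members fell and 0 rose, with a median log2 fold change of -0.46 over the 41, while of all genes 9162 fell (74.1%) and 138 rose (1.12%), with a median of -1.78. No member passed at an unadjusted p under 0.05 for a rise in edgeR, and DESeq2 and limma without normalization also called 0 rises. On the TMM scale, which moved the median of all genes to 0.03, the picture turned: 34 members rose and 0 fell, with a median of 1.34, against 27.8% of all genes that rose and 26.6% that fell. The paper found that TMM shifted the fold changes of its spike-in oligomers upward in these data. A rise on the TMM scale is therefore one relative to the other genes. The members that fell on the spike-in scale were RNU1-44P, RNVU1-27, RNU2-68P and RNU4-36P. Their number depended on single cell lines, with 0 called without GM18505, 13 without GM19193 and 1 (RNU4-36P) without GM19204. The standard error of a member had a median of 0.42 on the spike-in scale, so that a fall of the size of the all-gene median could be told from no change, but a small change could not. A gene entered the table only with a read in every library, so these counts hold for members that passed this filter.

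**Figure D3:**
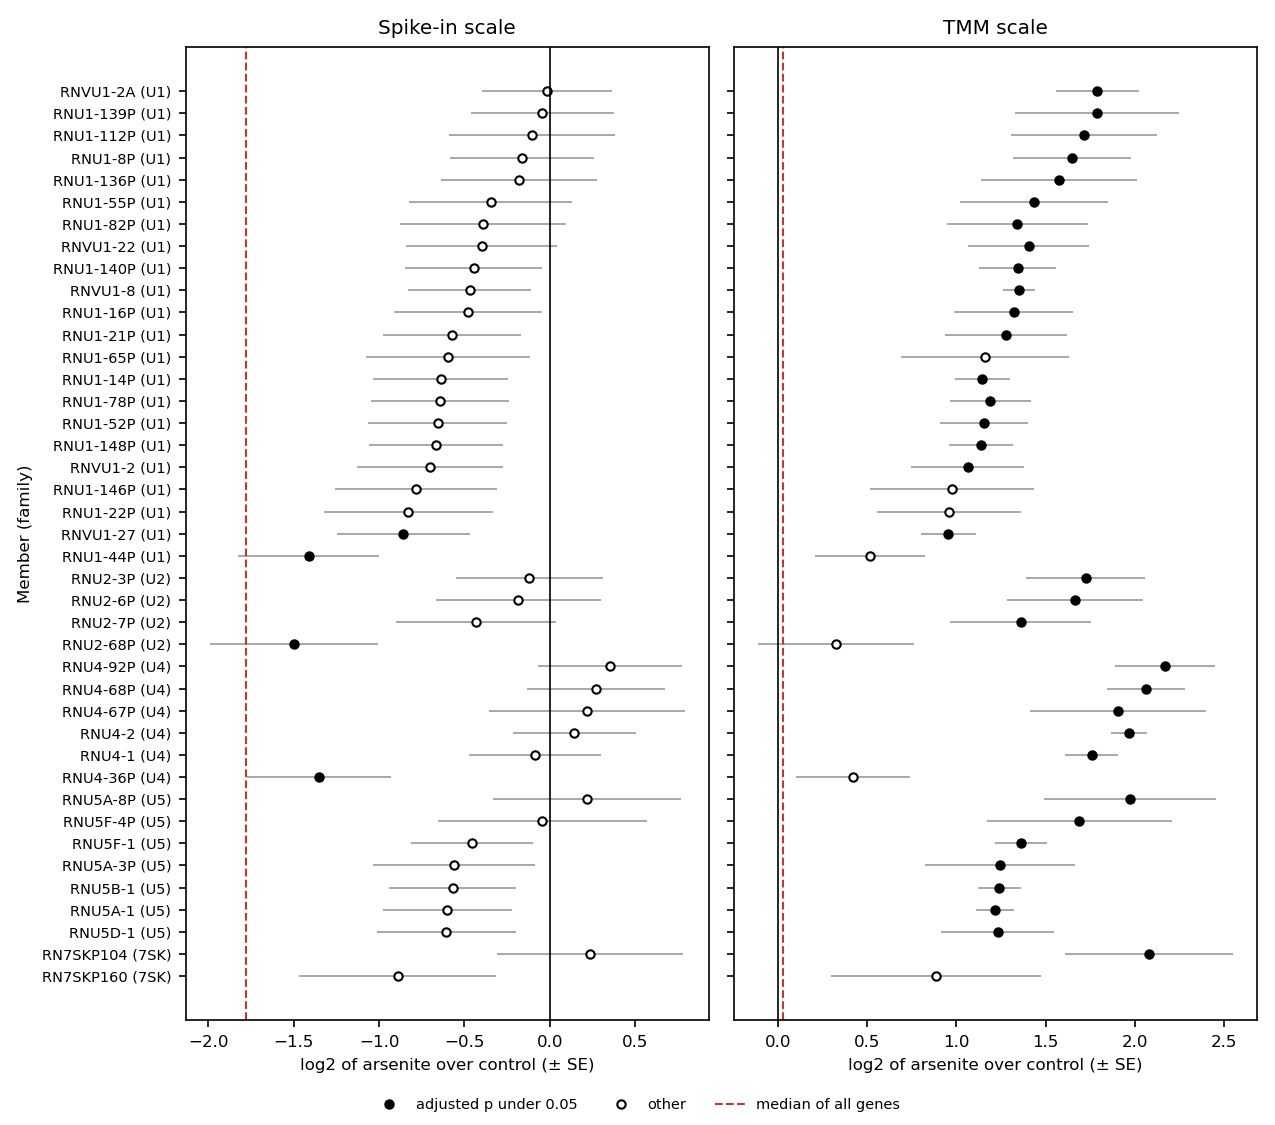
log2 fold change of arsenite over control (x axis, points, with bars of ± SE) of the 41 members, by family, on the spike-in scale (left) and the TMM scale (right), with filled points for an adjusted p under 0.05 and a dashed line at the median of all genes. The members lie right of the dashed line on both scales, with medians of -0.46 against -1.78 on the spike-in scale and 1.34 against 0.03 on the TMM scale.

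As a share of the counts in genes, the members made up 3191, 3110 and 2894 CPM in arsenite samples and 1282, 1358 and 1257 in control samples. All 3 arsenite samples were above all 3 control samples, with means of 3065 ± 154 and 1299 ± 52.7 (SD, n = 3) and a log2 ratio of 1.24 ± 0.07 over the cell lines. The scaled sum of the same counts was 4978, 7867 and 5161 in arsenite samples and 6796, 8240 and 8772 in control samples. These groups overlapped, and the log2 ratio was -0.43 ± 0.35. Of single members, 26 of 41 had every arsenite sample above every control sample in their share of counts (21.4% of all genes), and 4 of 41 had every arsenite sample below every control sample in scaled counts (68.7% of all genes).

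Sums by family are given as a description. On the scaled sums the log2 ratio was -0.50 ± 0.41 for U1, -0.44 ± 0.40 for U2, -0.01 ± 0.35 for U4, -0.49 ± 0.41 for U5 and -0.26 ± 0.51 for 7SK (SD, n = 3 cell lines). As shares of counts in genes, where every family stood higher in arsenite samples, it was 1.16 ± 0.11 for U1, 1.23 ± 0.24 for U2, 1.66 ± 0.18 for U4, 1.18 ± 0.31 for U5 and 1.40 ± 0.31 for 7SK. U4 had the highest ratio on either measure, and its share of all member counts was 20.5%, 8.56% and 12.8% in arsenite samples and 14.1%, 6.72% and 9.94% in control samples, higher with arsenite in 3 of 3 cell lines. No test was made of this order, since the sums share their samples and the families were chosen with results known.

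In U1, the RNA that recognizes the 5′ splice site, RNVU1-27 fell on the spike-in scale. It had scaled counts of 63.5, 166 and 99.8 in arsenite samples and 127, 247 and 202 in control samples. Within each line the arsenite sample was the lower, although the groups overlapped between lines. The log2 fold change was -0.86 ± 0.39 (SE, edgeR adjusted p = 0.0371), and on the TMM scale it was 0.96 ± 0.16 (adjusted p = 0.00144). RNU1-44P had 31.8, 414 and 67.8 scaled counts in arsenite samples and 164, 383 and 290.4 in control samples. It was lower with arsenite in GM18505 and GM19204 and about the same in GM19193, with log2 ratios of -2.37, 0.11 and -2.10. Its fold change was -1.41 ± 0.41 (adjusted p = 0.00104) on the spike-in scale and 0.51 ± 0.31 (adjusted p = 0.189) on the TMM scale. DESeq2 with the spike-in scale put it at -1.47 and did not call it.

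The other U1 members with values in every sample did not pass the test on the spike-in scale. RNVU1-2A had 273, 206 and 197 scaled counts in arsenite samples and 364, 209 and 150.1 in control samples, with a fold change of -0.02 ± 0.38 (adjusted p = 0.967). It is the U1 member nearest to 0 on this scale, and was at 1.79 ± 0.23 (adjusted p = 0.000463) on the TMM scale. RNVU1-8, whose counts are given above, was at -0.47 ± 0.36 (adjusted p = 0.232) on the spike-in scale and at 1.35 ± 0.09 (adjusted p = 4.6e-05) on the TMM scale. RNVU1-2 had 14.1, 50.6 and 21.3 scaled counts in arsenite samples and 25.3, 84.2 and 31.3 in control samples. The arsenite sample was the lower in every line, and the fold change was -0.70 ± 0.43 (adjusted p = 0.125). RNVU1-22 had 12.9, 21.7 and 16 scaled counts in arsenite samples and 18.6, 24.9 and 22.7 in control samples, again lower within each line and overlapping between lines, at -0.40 ± 0.44 (adjusted p = 0.419).

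Of the U1 copies, RNU1-148P was among the 5 lowest and RNU1-139P among the 5 highest fold changes of the 24 members with a mean count of at least 20. RNU1-148P had 42.4, 146 and 70.1 scaled counts in arsenite samples and 73.4, 193.4 and 124 in control samples. It was lower with arsenite in every line, at -0.67 ± 0.39 (adjusted p = 0.113). RNU1-139P had 22.4, 63.0 and 72.4 scaled counts in arsenite samples and 64.9, 51.0 and 37.8 in control samples. It was lower with arsenite in GM18505 and higher in GM19193 and GM19204, and the fold change was -0.04 ± 0.42 (adjusted p = 0.93). All 22 U1 members had fold changes between -1.41 and -0.02 on the spike-in scale and between 0.51 and 1.79 on the TMM scale, where 18 rose.

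In U2, the RNA that pairs with the branch point, RNU2-68P had 2.35, 10.3 and 7.62 scaled counts in arsenite samples and 15.2, 14.2 and 27.0 in control samples. Every arsenite sample was below every control sample. It fell on the spike-in scale, at -1.50 ± 0.49 (adjusted p = 0.00354), and was at 0.32 ± 0.44 (adjusted p = 0.551) on the TMM scale. RNU2-68P is a low member, with a mean count of 12.8 per sample. RNU2-3P, the U2 member nearest to RNU2-1 together with RNU2-6P (93.2% identity each), had 20, 21.7 and 32.0 scaled counts in arsenite samples and 27.0, 21.4 and 31.3 in control samples. The groups overlapped, at -0.12 ± 0.43 (adjusted p = 0.81). RNU2-6P and RNU2-7P were at -0.18 and -0.43. With TMM 3 of 4 U2 members rose.

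In U4, which pairs with U6, RNU4-2 had 705, 326 and 428 scaled counts in arsenite samples and 623, 202 and 572 in control samples. It was higher with arsenite in GM18505 and GM19193 and lower in GM19204, at 0.14 ± 0.36 (adjusted p = 0.732) on the spike-in scale and 1.97 ± 0.10 (adjusted p = 3.06e-05) on the TMM scale. RNU4-1 had 224, 89.9 and 132 scaled counts in arsenite samples and 213, 78.3 and 188 in control samples. It ran parallel to RNU4-2 across the samples, lowest in GM19193 in both conditions, at -0.09 ± 0.39 (adjusted p = 0.851). The ratio of RNU4-1 to RNU4-2 counts, which needs no scale, was 0.317, 0.275 and 0.308 in arsenite samples and 0.341, 0.388 and 0.328 in control samples.

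RNU4-36P, in the intron of ZFP90, was the U4 member that fell on the spike-in scale. It had 11.8, 60.9 and 22.1 scaled counts in arsenite samples and 47.2, 144 and 43.2 in control samples. The arsenite sample was the lower in each line, with log2 ratios of -2.01, -1.24 and -0.97, and the fold change was -1.35 ± 0.42 (adjusted p = 0.00207), against 0.42 ± 0.32 (adjusted p = 0.29) on the TMM scale. RNU4-68P, in an intron of KLC1 on the same strand, had 40, 145 and 44.2 scaled counts in arsenite samples and 41.3, 93.7 and 38.9 in control samples, at 0.27 ± 0.40 (adjusted p = 0.555). RNU4-92P, which overlaps an exon of a long noncoding RNA on the opposite strand, had 37.6, 41.3 and 29.7 scaled counts in arsenite samples and 31.2, 27.3 and 25.9 in control samples. The strand setting of the counting is not given in the sources used here, so reads of RNU4-92P and of that RNA cannot be told apart. It was higher with arsenite in 3 of 3 lines and the highest of the members in fold change, but did not pass the test on the spike-in scale, at 0.35 ± 0.42 (adjusted p = 0.456). With TMM RNU4-68P and RNU4-92P rose, at 2.06 ± 0.22 (adjusted p = 0.00019) and 2.17 ± 0.28 (adjusted p = 0.000471).

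In U5, the RNA at the centre of the spliceosome's exon contacts, RNU5F-1 had 1083, 993 and 907 scaled counts in arsenite samples and 1145, 1230.4 and 1789 in control samples. Every arsenite sample was below every control sample, and the fold change of -0.46 ± 0.36 (adjusted p = 0.245) did not pass the test. RNU5D-1 had 21.2, 48.6 and 51.8 scaled counts in arsenite samples and 53.1, 62.9 and 60.5 in control samples, also without overlap, at -0.61 ± 0.41 (adjusted p = 0.17). RNU5A-1 had 166, 291 and 206 scaled counts in arsenite samples and 248, 323 and 432 in control samples, at -0.60 ± 0.38 (adjusted p = 0.138). RNU5B-1 had 189, 352 and 165 scaled counts in arsenite samples and 261, 433 and 319.5 in control samples, at -0.57 ± 0.37 (adjusted p = 0.157). Both were lower with arsenite within each line and overlapped between lines. With TMM all 7 U5 members rose, with fold changes from 1.22 to 1.97.

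The 7SK copies were the lowest family. RN7SKP104 had 5.88, 8.26 and 6.86 scaled counts in arsenite samples and 6.75, 2.37 and 8.64 in control samples, at 0.24 ± 0.55 (adjusted p = 0.71), and on the TMM scale 2.08 ± 0.47 (adjusted p = 0.00662). RN7SKP160 had 8.23, 3.10 and 1.52 scaled counts in arsenite samples and 7.59, 8.31 and 6.48 in control samples, at -0.89 ± 0.58 (adjusted p = 0.151) and, on the TMM scale, 0.89 ± 0.59 (adjusted p = 0.231). At a mean count of 6.67 and 5.67 per sample, a change could be seen only if it was large.

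The members were set beside other classes of genes. On the spike-in scale the median was -0.46 for the members, 0.09 for 65 Y RNA genes and copies, 0.11 for 42 7SL genes and copies, 0.03 for 93 copies of 5S ribosomal RNA, -0.13 for 60 microRNA genes and -0.26 for 752 long noncoding RNAs, against -1.91 for 10872 protein-coding genes. The same medians on the TMM scale were 1.34, 1.92, 1.91, 1.82, 1.69 and 1.52, against -0.09 for protein-coding genes. On the spike-in scale 1 of 65 Y RNA rows, 1 of 42 7SL rows, 3 of 93 5S rows and 2 of 60 microRNA rows fell, against 4 of 41 members, and 2, 7, 5 and 0 rose, against 0 members. These classes share the samples and the scale, and no test was made between them.

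**Figure D4:**
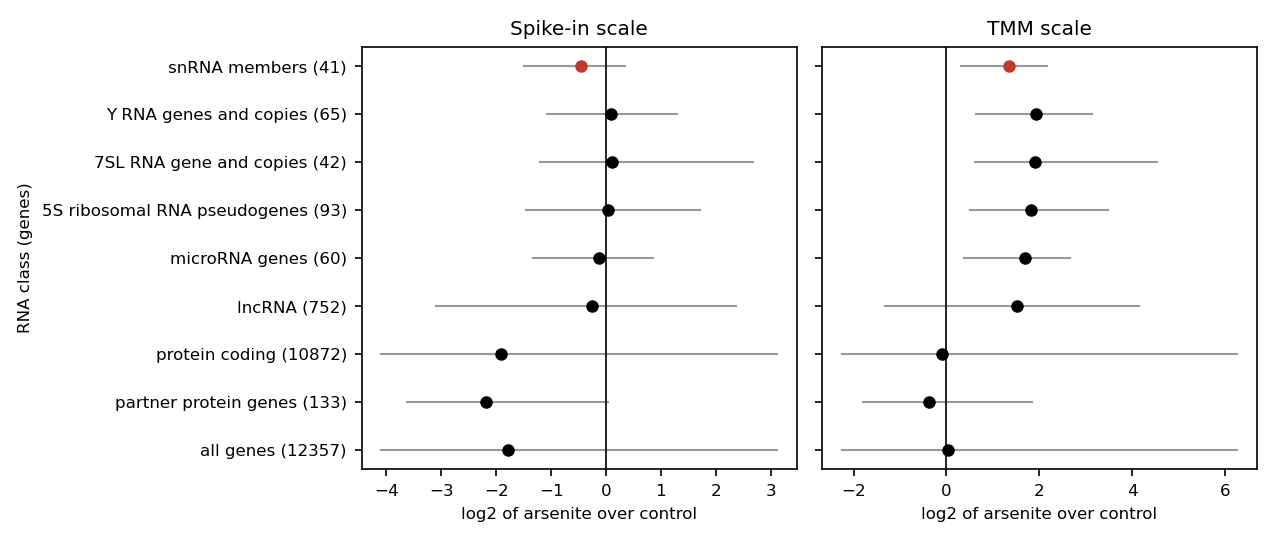
Median (point) and range (line) of the log2 fold change of arsenite over control (x axis) for the snRNA members and other classes of genes (y axis, number of genes in brackets), on the spike-in scale (left) and the TMM scale (right). The members' median of -0.46 on the spike-in scale lies below those of the other short RNAs (-0.13 to 0.11) and above the -2.19 of their 133 partner protein genes.

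The mRNAs of the proteins that bind, make or carry these RNAs were counted in 11 lists. Of 135 genes, 133 were in the table, and on the spike-in scale 125 fell and 0 rose, with a median of -2.19, where 74.1% of all genes and 81.2% of protein-coding genes fell. On the TMM scale 68 fell and 17 rose, with a median of -0.38, where 26.6% of all genes and 29.8% of protein-coding genes fell. In the Sm ring, the proteins on the Sm site, 7 of 8 fell with a median of -2.42. SNRPB, a core protein of the ring, had 228, 432 and 261 scaled counts in arsenite samples and 1770, 2518 and 2452 in control samples, at -2.91 ± 0.38 (adjusted p = 1.74e-12). SNRPD2 and SNRPF of the same ring also fell, at -2.81 and -2.62. The groups did not overlap in any of these. These genes fell on the TMM scale as well, at -1.09, -0.99 and -0.81. Of all 8 genes of the ring, 6 fell and 1 rose on that scale.

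The protein lists of the single particles are also given beside the fall of 81.2% of protein-coding genes on the spike-in scale and 29.8% on the TMM scale. All 3 U1 proteins fell (SNRPA by 2.33, SNRNP70 by 2.19 and SNRPC by 1.73 on the log2 scale), with a median of -2.19, and on the TMM scale SNRPA and SNRNP70 fell while SNRPC was at 0.09 (adjusted p = 0.49). Of 15 U2 proteins 14 fell with a median of -2.29, among them the helicases DDX46 (-2.75) and DHX15 (-2.67) and the SF3b protein SF3B4 (-2.68). All 18 proteins of U4/U6 and U5 fell with a median of -2.38, among them SNU13 (-2.68), SNRNP40 (-2.66) and the U4/U6 helicase SNRNP200 (-2.55). All 7 LSm proteins, which bind the end of U6, fell with a median of -2.54, led by LSM2 (-3.30), LSM6 (-2.85) and LSM5 (-2.65). Of these last lists 10, 14 and 4 genes fell on the TMM scale, against 4, 0 and 1 that rose.

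The lists of the minor spliceosome, U7 and 7SK were read against the 74.1% of all genes and 81.2% of protein-coding genes that fell on the spike-in scale. On the TMM scale these shares were 26.6% and 29.8%. The median of protein-coding genes on the spike-in scale was -1.91. Of 12 minor spliceosome proteins 11 fell with a median of -1.82, with ZMAT5 at -2.58, ZCRB1 at -2.46 and TXNL4B at -2.50. With TMM 2 of the 12 fell and 1 rose. All 9 genes of U7 and histone 3′ end formation fell with a median of -2.05, with SLBP, which binds the histone mRNA stem-loop, at -3.18, CPSF2 at -3.02 and CPSF3 at -2.30. With TMM 3 of these fell. Of 10 genes of 7SK and P-TEFb 9 fell with a median of -1.81, with the kinase CDK9 at -2.42 and the 7SK-binding protein LARP7 at -1.78. On the TMM scale 1 of them fell and 4 rose, with CDK9 at -0.60 (adjusted p = 0.00285) and LARP7 at 0.03 (adjusted p = 0.829).

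Genes that make and carry small nuclear RNAs included STRAP, the partner gene with the lowest fold change on the spike-in scale, on which 81.2% of protein-coding genes fell. Of 24 genes of snRNA transcription and 3′ end formation 22 fell with a median of -2.18, with the Integrator subunits INTS13 at -3.25, INTS3 at -2.69 and INTS1 at -2.59. Of the 19 counted genes of export, the SMN complex and import, 18 fell with a median of -2.44. STRAP, of the SMN complex, had 43.5, 128 and 56.4 scaled counts in arsenite samples and 666, 1031 and 885 in control samples, at -3.62 ± 0.41 (adjusted p = 5.29e-16) on the spike-in scale and -1.80 (adjusted p = 4.6e-05) on the TMM scale. CLNS1A, which hands Sm proteins over, was at -3.24 and the import receptor KPNB1 at -2.72. Of 10 genes of U6 and polymerase III transcript maturation 9 fell with a median of -1.83, with SSB, the La protein, at -2.84, TBP at -2.90 and TOE1 at -2.67. With TMM 10, 13 and 3 genes of these lists fell, and 4, 1 and 1 rose, where 29.8% of protein-coding genes fell.

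A further question was whether the members differed between the cell lines. With treatment in the model, 10 of 41 members were called on the spike-in scale, against 9.71% of all genes, and 10 on the TMM scale, against 12.2%, with 7 members called on both. Of the other classes, 23 of 93 5S copies, 9 of 60 microRNA genes and 112 of 752 long noncoding RNAs were called on the spike-in scale. So were 4 of 65 Y RNA rows and 4 of 42 7SL rows. Of the 10 members called on that scale, 8 were U1 members and 2 were U4 copies, and 9 had their highest level in GM19193 and their lowest in GM18505. The highest line exceeded the lowest by a median of 3.98-fold in these 10 (range 2.86 to 5.51), against 2.25-fold over all 41 members. In all 10 the same line was highest in arsenite and in control samples. Over all U1 members, called or not, GM19193 was the highest line in 19 of 22. The highest line was not counted over all genes, so this order is not shown to be particular to U1. The scaled total of all genes was also lowest in GM18505 in both conditions. It was highest in GM19193 among arsenite samples and in GM19204 among control samples. Each line gave 1 culture per condition, so that a difference between lines and one between cultures or spike-in additions cannot be told apart.

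RNU1-44P had the smallest p between lines (adjusted p = 6.14e-05 on the spike-in scale), with 31.8, 414 and 67.8 scaled counts in arsenite samples and 164, 383 and 290.4 in control samples. RNU1-14P had 42.4, 245 and 91.4 in arsenite samples and 58.2, 305 and 200 in control samples (adjusted p = 0.000187). RNU1-140P, in an intron of the long noncoding RNA NIHCOLE, had 23.5, 128 and 62.5 in arsenite samples and 32.9, 158 and 92.8 in control samples (adjusted p = 0.000777). In these 3 copies GM19193 was the highest and GM18505 the lowest line in both conditions. RNU1-78P, RNU1-21P, RNU1-148P, RNVU1-2, RNU4-36P and RNU4-68P were also highest in GM19193 in both conditions. RNU1-112P went the other way, with 18.8, 9.30 and 8.38 scaled counts in arsenite samples and 30.4, 5.93 and 7.56 in control samples (adjusted p = 0.0329), highest in GM18505. On the TMM scale RNU1-21P, RNVU1-2 and RNU4-36P were not called (adjusted p of 0.192, 0.0997 and 0.0542), and RNU4-1, RNU4-2 and RNVU1-2A were called in their place.

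Ratios of members within a sample need no scale. Counts on RNU1-44P were 0.045, 1.27 and 0.158 times those on RNU4-2 in arsenite samples and 0.264, 1.90 and 0.508 times in control samples, highest in GM19193 in both conditions. RNVU1-2A was at 4.30, 1.24 and 1.98 times RNVU1-27 in arsenite samples and at 2.86, 0.846 and 0.743 times in control samples, highest in GM18505 in both. RNU5B-1 was at 1.14, 1.21 and 0.80 times RNU5A-1 in arsenite samples and at 1.05, 1.34 and 0.74 times in control samples, so that both U5 genes stood within a narrow range of each other. These ratios were picked after the values were seen, and are given as a description.

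**Figure D5:**
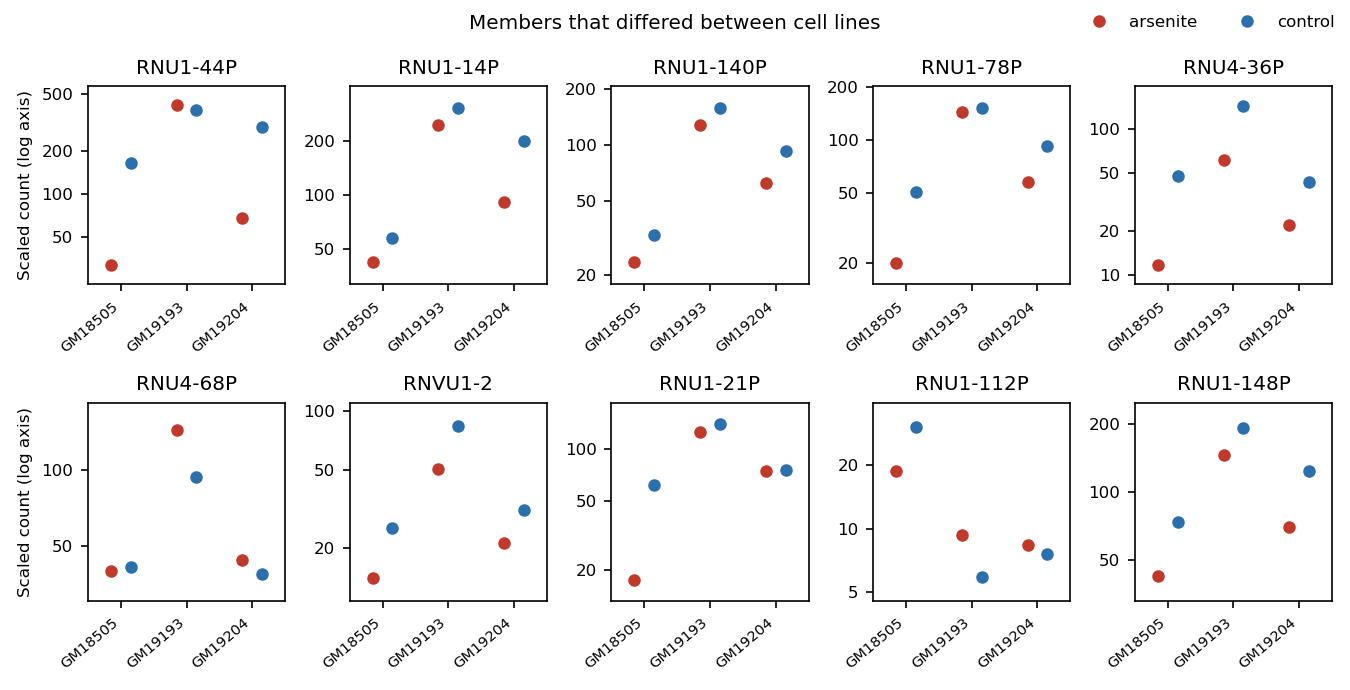
Spike-in-scaled counts (y axis, log) of the 10 members that differed between cell lines (x axis), with 1 point per sample, arsenite left of control within each line. GM19193 is the highest line in 9 panels and GM18505 in that of RNU1-112P, in both conditions.

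The effect of arsenite itself was compared between the lines with T and U as the only replicates, so that the p-values measure the technical spread between libraries. On the spike-in scale 8 of 41 members differed, against 43.2% of all genes, and on the TMM scale 5 of 41, against 5.41%, with 4 on both (RNU1-44P, RNU1-21P, RNU1-139P and RNU5F-1). RNU1-44P had log2 ratios of -2.37, 0.11 and -2.10 on the spike-in scale (adjusted p = 3.1e-13). RNU1-139P had -1.54, 0.30 and 0.94 (adjusted p = 0.000467). Over all genes the median ratio was itself -1.89, -1.30 and -2.23 in the 3 lines, and over the members it was -0.69, -0.15 and -0.50, on the same scale.

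The last comparison was between the T libraries, with the added CRISPR step, and the U libraries. Both had been depleted of ribosomal RNA with oligomers, and they were prepared in separate rounds, so that the CRISPR step and the round cannot be told apart. Between T and U libraries 0 members were called, against 0.0162% of all genes (2 genes), on the TMM scale in edgeR. The log2 ratio of T over U ranged from -0.44 to 0.90 over the members with a median of -0.01, and at an unadjusted p under 0.05, 3 members were higher and 3 lower in T. On the spike-in scale 0 were called and 3 were higher and 2 lower at that unadjusted p. RNU5F-1, singled out after its values were seen, had the smallest p, at -0.29 ± 0.07 (adjusted p = 0.231), and was called without GM18505 and in control samples alone. Its log2 ratios of T over U by sample, as shares of counts, were 0.48, -1.45 and -0.25 with arsenite and -0.29, -0.14 and -0.40 in control.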

How the data were processed

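Ribosome footprint libraries of 3 lymphoblastoid cell lines with and without 134 µM sodium arsenite for 30 min were analysed. The deposited values are counts of uniquely mapped reads per gene and per spike-in oligomer. To make them, the authors trimmed adapters (FASTX), removed ribosomal, transfer and small nucleolar RNA reads, mapped to GRCh38 with TopHat2 (GENCODE 37, at most 2 mismatches) and counted with featureCounts of Subread. For tool versions and the strand setting, the entry is: not given in the sources used here. Genes without a read in some library were dropped by the authors, and the deposited counts are not normalized. Loss of reads with several places lowers near-identical genes.

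Here, symbols and positions came from GENCODE 44 on GRCh38 (12343 of 12357 identifiers matched). T and U counts were summed per sample and tested with edgeR 4.0.16 (quasi-likelihood, R 4.3.3, two-sided), with cell line and treatment as terms. P-values were adjusted over all genes after Benjamini-Hochberg, at 0.05. Library sizes came from 7 of 16 oligomers, those with no library under 10 reads, as the mean of log2 count minus log2 nominal amount (SE 0.073 to 0.163 per sample). The pools were taken from the paper. A scaled count is a count divided by this size factor. Differences between cell lines were tested with both cell line terms together, T against U with a term per sample on the TMM scale, and the treatment effect between lines on the 12 libraries. The cell line pairs the samples, because it supplied an arsenite and a control culture. Deviations from the group means of these cultures correlated at 0.55, 0.51 and 0.46 over all genes. Over the 41 members they correlated at 0.66, 0.75 and, in GM19204, only 0.17. Nothing says that cultures of a line were repeated. With cell line as a term, p-values for arsenite measure its effect against a spread between the lines that edgeR estimates over many genes together. On the spike-in scale the standard error of a member therefore says little of its own lines. It was 0.41 for RNU1-44P (log2 ratios of -2.37, 0.11 and -2.10) and 0.39 for RNVU1-27 (-1.00, -0.57 and -1.02). A small p does not mean that the lines changed alike. The test between cell lines uses the same spread. The tests of T against U and of the treatment effect between lines use the spread between libraries.

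The members, lists and rule for named genes were chosen with earlier results of these data known. The rule names each member not annotated as a copy, the 2 highest of each family in control samples, the 5 highest and 5 lowest fold changes at a mean count of at least 20, and the 3 smallest p of each partner list. A gene named by this rule and some sequences are not reported here. Alternatives were TMM, no scaling, all 16 oligomers, DESeq2 size factors, the T or the U libraries only, the 12 libraries unsummed, no cell line term, each line left out, mean counts of at least 10 and 50, DESeq2 1.42.0 and limma 3.58.1 (log2 of count plus 0.25). On simulated counts of 12357 genes, edgeR recovered 94.0% of genes with a log2 change of 2 and 84.0% with -2 (50 genes each). It recovered 12.0% with 1 and 12.0% with -1 (50 genes each). In the data, by contrast, 9162 of 12357 genes fell on the spike-in scale. Because p-values are adjusted over all genes, these percentages hold for that setting only. Recovery with as many changed genes as in the data was not tested. Figures were drawn with matplotlib 3.10.9.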

Additional observations from a re-analysis of the deposited data

Results flagged for a closer look

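The effect of arsenite on 9 members differed between the cell lines on at least 1 scale, in an edgeR test of the difference with T and U libraries as the only replicates. The value given is the range over the 3 lines of the log2 ratio of arsenite over control on the spike-in scale. It was 2.48 for RNU1-44P (-2.37 in GM18505, 0.11 in GM19193 and -2.10 in GM19204) and also 2.48 for RNU1-139P (-1.54, 0.30 and 0.94). It was 1.80 for RNU1-21P (-1.82, -0.16 and -0.02), 1.26 for RNU1-78P (-1.34, -0.08 and -0.68) and 1.11 for RNU4-2 (0.18, 0.69 and -0.42). It was 0.92 for RNU5A-1 (-0.58, -0.15 and -1.07), 0.90 for RNU5F-1 (-0.08, -0.31 and -0.98), 0.86 for RNVU1-8 (-0.66, 0.06 and -0.80) and 0.82 for RNVU1-2A (-0.42, -0.02 and 0.40). RNVU1-2A was called on the TMM scale only (adjusted p = 9.16e-05), and RNU1-78P, RNU4-2, RNU5A-1 and RNVU1-8 on the spike-in scale only. The spread between cultures of 1 line was not measured, and the part of the spike-in scale in these differences was not tested.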

How the results depend on the processing

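The number of members that fell was 4, and it was 0 with TMM, DESeq2 size factors of the genes and limma with TMM, 11 with 12 separate libraries, 1 with no replicate block (no term for the cell line, which pairs the samples) and 0 to 13 with 1 cell line left out. It stayed within 1.5 times of 4 under the other alternatives (3 to 6). The number that rose was 0, against 34 with TMM, 34 with DESeq2 size factors and 36 with limma with TMM, and it was 0 with each line left out. TMM and DESeq2 size factors set the middle gene near 0 by construction, and the other causes were not tested. Of all genes 9162 fell, against 3290 (TMM), 3297 (DESeq2 size factors) and 3556 (limma with TMM), and 6708 to 9642 with 1 line left out. Of all genes 138 rose, against 3433, 3426 and 3862 with these, 84 without scaling, 213 with all 16 oligomers, 272 with 12 libraries, 79 with no replicate block, 69 at a mean count of at least 50, 88 with DESeq2, 226 with limma without normalization and 58 to 149 with 1 line left out.

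The sign of the log2 fold change turned for 16 named members. With TMM the values were 1.79 for RNU1-139P, 1.14 for RNU1-148P, 0.51 for RNU1-44P, 1.06 for RNVU1-2, 1.40 for RNVU1-22, 0.96 for RNVU1-27, 1.79 for RNVU1-2A, 1.35 for RNVU1-8, 1.73 for RNU2-3P, 0.32 for RNU2-68P, 1.76 for RNU4-1, 0.42 for RNU4-36P, 1.22 for RNU5A-1, 1.24 for RNU5B-1, 1.23 for RNU5D-1, 1.36 for RNU5F-1, and, of the partners, 0.03 for LARP7 and 0.09 for SNRPC. With DESeq2 size factors they were, in the same order of members, 1.79, 1.13, 0.51, 1.06, 1.40, 0.95, 1.79, 1.35, 1.72, 0.32, 1.76, 0.42, 1.21, 1.24, 1.23 and 1.36, and with limma with TMM 1.72, 1.21, 0.33, 1.12, 1.35, 0.93, 1.80, 1.38, 1.64, 0.09, 1.73, 0.40, 1.18, 1.19, 1.22 and 1.26. Among the other values of the 21 named members, 243 kept their direction and call, or changed sign with neither value called, 13 lost a call and 23 gained one.

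As shares of counts in genes the family sums were at 1.16 (U1), 1.23 (U2), 1.66 (U4), 1.18 (U5), 1.40 (7SK) and 1.24 (all), against -0.50, -0.44, -0.01, -0.49, -0.26 and -0.43 on the spike-in scale, and T or U libraries alone moved none by more than 1 SD. Single libraries differed more than these means over lines. With arsenite, U5 had 1121, 395 and 704 CPM in T libraries and 787, 796 and 811 in U libraries. U4 had 772, 182 and 354 in T and 547, 301 and 387 in U. With TMM the partner genes that fell numbered 4 (LSm), 2 (minor spliceosome), 3 (U7), 1 (7SK), 10 (snRNA transcription), 3 (U6 maturation) and 68 (all), and the other lists and the counts without scaling stayed within 1.5 times. Between T and U, 1 member was called in control samples alone and 0 to 1 with 1 line left out, and 1 gene with the spike-in scale, 4 in control samples, 0 in arsenite samples, 0 with no replicate block and 0 to 5 with 1 line left out. Between cell lines, members called were 10 with TMM, 9 in T and 7 in U libraries alone, and genes called were 742 in T libraries alone. Low counts limit the copies: 24 of 41 members had a mean count of at least 20.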

Other observations

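The position and letters of the members did not enter the comparisons. Of the 41 members, 22 lay between genes, 12 in an intron of another gene on the same strand, 5 in an intron on the opposite strand and 2 over an exon of another gene. In the 12 same-strand cases reads of the member and of unspliced RNA of the other gene cannot be told apart. With the strand setting not given, the same holds in the last 7 cases. RNU5A-3P, counted among the 12, also lies in an intron of GTF2E2 on the opposite strand. The median log2 fold change of arsenite over control on the spike-in scale was -0.46 in same-strand introns (2 of 12 fell, RNU2-68P and RNU4-36P) and -0.52 between genes (2 of 22 fell), and on the TMM scale it was 1.33 and 1.32. The Sm letters as searched here stood in 17 U1 and 4 U2 members and in none of U4, U5 or 7SK, so that this split follows the families. Members without these letters may still hold a Sm site with an ending other than GG. The 21 members with them had a median of -0.48 and the 20 without had -0.29 on the spike-in scale, and 1.32 and 1.47 on the TMM scale. The 7 U1 members with CTTACCTG had a median of -0.57 and the 15 without had -0.48 on the spike-in scale, and 1.28 and 1.32 on the TMM scale. These groups share samples and families, and the values are given as a description.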
